A study of Rattus norvegicus with 20 samples.

Results

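The genes described here are the 7 subunits of respiratory complex I that rats encode in mitochondrial DNA, followed through both heart chambers that pump blood out, the right (RV) and the left ventricle (LV), in rats given monocrotaline (MCT) or saline. They are Nd1 (ENSRNOG00000030644), Nd2 (ENSRNOG00000031033), Nd3 (ENSRNOG00000033615), Nd4 (ENSRNOG00000029707), Nd4l (ENSRNOG00000031053), Nd5 (ENSRNOG00000029971) and Nd6 (ENSRNOG00000029042). They were picked by these Ensembl IDs among the 30452 genes of the deposited count table, and all 7 passed the filter on low counts with 10929 genes in all. There were 5 libraries of each ventricle after MCT and 5 after saline, 4 groups in all. The male rats weighed 250 g when injected with either 60 mg/kg MCT or saline solution. A discomfort score of 7 or more set the time of killing, and the labels do not say separately when saline rats were killed. The labels name no strain and no genotype. MCT is a plant alkaloid that injures the vessels of the lung and so loads the right heart. It is given to the whole animal, so the LV of an MCT rat is not an untreated tissue. Reads came from 3'-end (QuantSeq) libraries of whole ventricle, which hold RNA of every cell type there. The identity of the ventricle could not be checked against marker genes, because the IDs of the count table carry no names beyond the 7 given above.

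Complex I is the entry point of the respiratory chain: it takes electrons from NADH, passes them to ubiquinone and pumps protons out of the mitochondrial matrix. Heart muscle depends on it for most of its ATP. The subunits encoded by mitochondrial DNA all sit in the membrane arm of the complex, while the arm that binds NADH is built from subunits made from nuclear genes. Nd2, Nd4 and Nd5 are the large subunits related to antiporters that form the proton channels, and Nd1 lies at the joint of both arms near the ubiquinone site. Nd3, Nd4l and Nd6 are small subunits beside that joint. Mitochondrial DNA is transcribed from both strands into long RNAs that are then cut into single messengers. Nd6 is copied from the opposite strand to the other 6 genes. Nd4l and Nd4 stay together on a shared messenger with overlapping reading frames. In human cells the ND6 messenger lacks the poly(A) tail that the others carry, and the library method used here starts from poly(A).

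Together the 7 genes held between 6.48% and 15.1% of all counts in a library. Their summed share was 9.48% ± 1.86 (SD, n = 5) in RV MCT libraries and 12.1% ± 2.07 in RV saline libraries. In the LV it was 8.33% ± 1.38 after MCT and 12.0% ± 1.75 after saline. The highest LV MCT library, replicate 2 at 10.2%, lay just above the lowest LV saline library, replicate 2 at 10.1%. Library totals ran from 3272420 to 9227104 counts. Even Nd6 had 4266 counts in the library where it had the fewest, so counting error was small against the spread between libraries. Whether each library of a group is its own animal is not stated, and the p-values cover the spread among these libraries, which may be technical. Between 3 and 4 of the 7 genes were among the 10 genes with the most counts in every library.

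**Figure D1:**
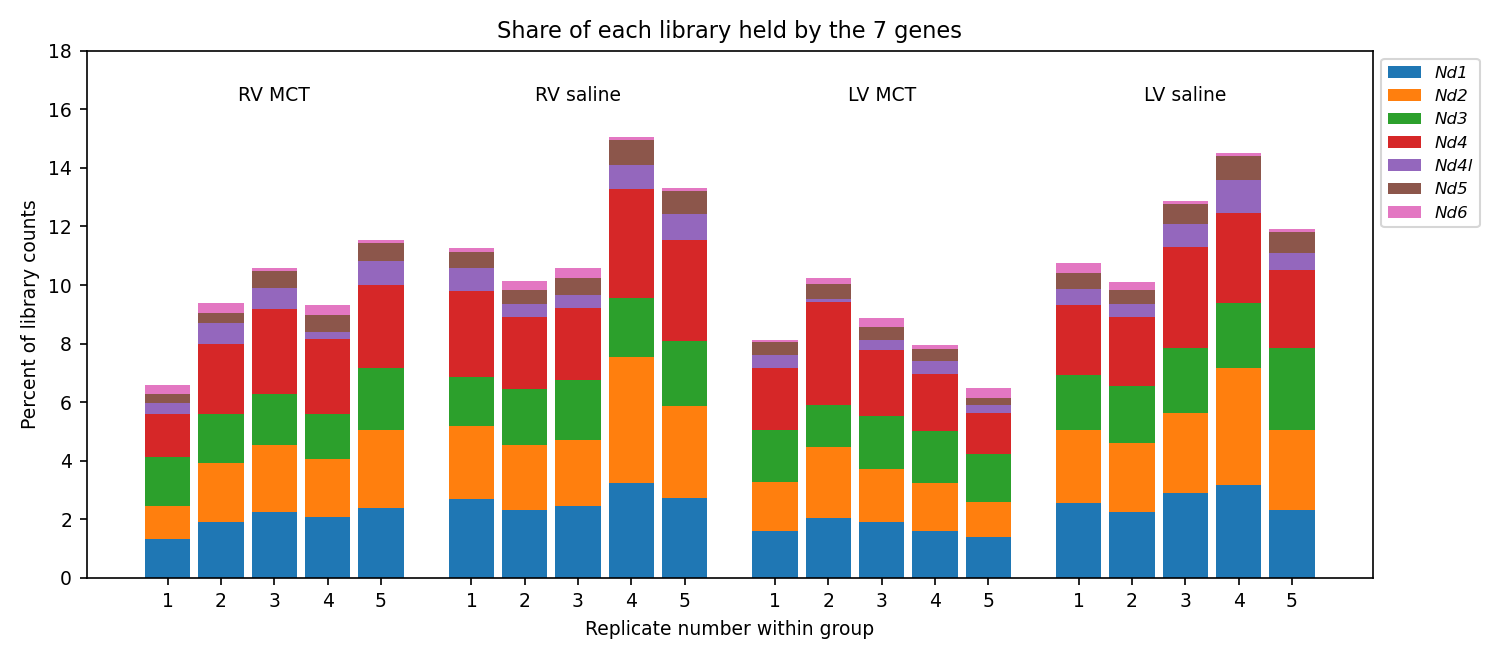
Percent of all counts in each library (y axis, linear) held by each of the 7 genes, stacked, for replicates 1 to 5 of each group (x axis). The lowest bar, at 6.48%, belongs to LV MCT replicate 5, and the highest is RV saline replicate 4 at 15.1%.

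In the LV, 5 of the 7 genes fell after MCT: Nd1, Nd2, Nd3, Nd4l and Nd5. Their levels were between 0.375 and 0.616 of the saline level. Nd4 was at 0.654 of the saline level and Nd6 at 0.939, and neither passed the threshold (edgeR quasi-likelihood test, Benjamini-Hochberg adjusted p under 0.05 over all 10929 genes). No member rose. Among all genes tested 9.52% were called in this comparison, and 4.06% were called lower. The median log2 fold change was -0.92 over the 7 genes and 0.03 over all genes. With library totals alone as the scale, 3 members were called lower, Nd1, Nd2 and Nd4l, the median of all genes was 0.39, and over all genes 2051 were called higher and 91 lower, against 596 higher and 444 lower with TMM. The 6 genes other than Nd6 had log2 fold changes from -1.08 to -0.31 on that scale. Fewer cells that hold much of this RNA and less RNA per cell cannot be told apart in whole tissue.

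The values that follow are in CPM, counts divided by the library total after scaling by the trimmed mean of M values (TMM), which is the scale tested. Nd1, the subunit at the joint of the arms, was at 12062, 18755, 24064, 12837 and 12595 CPM in LV MCT libraries 1 to 5, against 30228, 27744, 34013, 35481 and 24761 CPM in LV saline libraries. Every MCT library lay below every saline library, although LV MCT replicate 3 came close to the lowest saline library. The log2 fold change was -0.92 (SE 0.21, edgeR adjusted p = 0.015), with a 95% interval from -1.36 to -0.48.

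Nd2, a channel-forming subunit, was at 12855, 22610, 23210, 12995 and 10824 CPM in LV MCT libraries, against 29422, 28814, 32340, 44914 and 29502 CPM in LV saline libraries. The groups did not overlap, and LV saline replicate 4 stood well above the other saline libraries. On the log2 scale the fold change was -1.0 (SE 0.26, edgeR adjusted p = 0.022). Nd5, the largest channel-forming subunit, was at 3393, 4852, 5728, 3227 and 2320 CPM in LV MCT libraries, against 6555, 5886, 7993, 9134 and 7625 CPM in LV saline libraries. Again no MCT library reached the saline range, and LV MCT replicate 3 was the nearest to it. Nd5 differed by -0.93 on the log2 scale (SE 0.26, edgeR adjusted p = 0.030).

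Nd4l, the smallest subunit and a companion of Nd4 on the same messenger, had the largest fitted fall of the members. It was at 3425, 1009, 4382, 3570 and 2471 CPM in LV MCT libraries, against 6111, 5206, 9422, 12732 and 6115 CPM in LV saline libraries. The groups did not overlap, with LV MCT replicate 2 far below the rest and LV saline replicate 4 far above. Its log2 fold change was -1.41 (SE 0.34, edgeR adjusted p = 0.018), with a 95% interval from -2.12 to -0.70. That interval also holds the fitted values of Nd1, Nd2 and Nd5.

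Nd3, a small subunit at the joint, was at 13613, 13081, 22999, 14128 and 14756 CPM in LV MCT libraries, against 22556, 23931, 26051, 25274 and 29778 CPM in LV saline libraries. Here 4 MCT libraries lay far below the saline range, while LV MCT replicate 3 lay inside it. For Nd3 the log2 fold change was -0.70 (SE 0.18, edgeR adjusted p = 0.021). On TMM CPM, groups without overlap were therefore found for 4 of the 7 genes, Nd1, Nd2, Nd4l and Nd5. All 4 were lower after MCT, against 3.82% of all genes that were lower without overlap. As a percent of the library, Nd2, Nd4l and Nd5 overlapped. Nd1 stayed apart there, with at most 2.03% after MCT and at least 2.26% after saline. Nd3 was apart there too, with at most 1.81% against at least 1.90%. How many of all genes were apart as a percent of the library was not counted.

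Nd4, a channel-forming subunit, was at 15936, 32500, 28537, 15581 and 12768 CPM in LV MCT libraries, against 28415, 29172, 40395, 34251 and 28707 CPM in LV saline libraries. Replicates 1, 4 and 5 lay far below the saline range and replicates 2 and 3 lay within it. Its log2 fold change of -0.61 (SE 0.25) had an edgeR adjusted p of 0.12 and a 95% interval from -1.12 to -0.10. Without LV MCT replicate 2 it was -0.84, with an edgeR adjusted p of 0.045. In the 19 other fits that left out 1 library Nd4 was not called. There the edgeR adjusted p reached 0.26, and the log2 fold change was as small as -0.50. Limma voom with quality weights called Nd4 at -0.89 (adjusted p = 0.0014) and 6 members in all, and DESeq2 called 5, with Nd4 at an adjusted p of 0.070.

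The LV calls depended on single libraries, apart from that of Nd1, which was kept when any 1 of the 20 libraries was left out (edgeR adjusted p from 0.0017 to 0.042 without 1 LV library). Without LV MCT replicate 1, 4 or 5, Nd1 and Nd4l were the 2 genes called, and the adjusted p ran from 0.053 to 0.061 for Nd2, from 0.051 to 0.053 for Nd3 and from 0.067 to 0.079 for Nd5. Without LV saline replicate 4, Nd1 and Nd3 were the 2 genes called, and Nd4l was at an adjusted p of 0.052. Without LV saline replicate 5, 3 genes were called, with Nd3 at an adjusted p of 0.056 and Nd5 at 0.059. Without LV saline replicate 3, Nd5 was lost at 0.062. Every library also carries a code that looks like a date. In each group 3 codes fall in May or June and the other 2 in November, and an RV and an LV library of the same treatment and number carry the same code. The labels do not say whether such a pair comes from the same animal. MCT and saline libraries shared no code of May or June, and in November they shared only that of replicate 4. Treatment and code can therefore hardly be told apart, also within the months. Within May and June the 6 genes other than Nd6 had LV log2 fold changes from -1.28 to -0.37, and none was called. Within November the values ran from -1.65 to -0.93 with 3 called, Nd1, Nd2 and Nd5. The shares of all genes called within these months or without single libraries are not given here.

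In the RV no member was called (edgeR, smallest adjusted p = 0.18). Among all genes 0.274% were called in this comparison, and 17.5% had an unadjusted p under 0.05. At that unadjusted level 2 members, Nd1 and Nd2, were lower after MCT, as were 7.56% of all genes. The 6 genes other than Nd6 had negative log2 fold changes, from -0.64 to -0.30, as had 48.6% of all genes, and Nd6 had 0.13. The median was -0.42 over the 7 genes and 0.01 over all genes. DESeq2 and limma voom also called 0 of the 7.

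Nd1 was at 12410, 16173, 18215, 23938 and 22917 CPM in RV MCT libraries, against 24246, 25003, 28834, 32530 and 26510 CPM in RV saline libraries. On TMM CPM the groups did not overlap, and RV MCT replicate 4 lay just under the lowest saline library. Across all genes 1.42% were lower without overlap in this comparison, and Nd1 was the only member among them. As a percent of the library the Nd1 groups overlapped, with RV MCT replicate 5 at 2.40% and RV saline replicate 2 at 2.32%. The log2 fold change of Nd1 was -0.55 (SE 0.21, edgeR adjusted p = 0.18), with a 95% interval from -0.99 to -0.11.

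Nd2 was at 10630, 17206, 18236, 22546 and 25224 CPM in RV MCT libraries, against 22395, 23809, 26815, 42981 and 30239 CPM in RV saline libraries. RV MCT replicates 4 and 5 reached the saline range and replicate 1 was the lowest of all libraries in the study. The log2 fold change was -0.64 (SE 0.26, edgeR adjusted p = 0.20), with a 95% interval from -1.17 to -0.11.

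Nd4 was at 13696, 20636, 23240, 29326 and 27116 CPM in RV MCT libraries, against 26133, 26466, 29068, 37185 and 33224 CPM in RV saline libraries. Nd5 was at 2801, 2896, 4743, 6581 and 5612 CPM in RV MCT libraries, against 4876, 5044, 6732, 8444 and 7382 CPM in RV saline libraries. For both genes, RV MCT replicates 4 and 5 lay within the saline range and the other 3 below it.

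Nd3 was at 15997, 14183, 14205, 17612 and 20250 CPM in RV MCT libraries, against 14986, 20576, 24205, 20209 and 21594 CPM in RV saline libraries. Nd4l was at 3519, 6111, 5664, 2908 and 8014 CPM in RV MCT libraries, against 7266, 5097, 5296, 8291 and 8785 CPM in RV saline libraries. For both the groups overlapped, and 1 low saline library, replicate 1, made most of the overlap in Nd3. In edgeR, Nd5 had a log2 fold change of -0.52 (adjusted p = 0.30), Nd4 of -0.42 (adjusted p = 0.40), Nd4l of -0.41 (adjusted p = 0.59) and Nd3 of -0.30 (adjusted p = 0.40). The 95% intervals of these 4 genes included no change.

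RV MCT replicate 4 and LV MCT replicate 3 held the highest Nd1 of their groups on TMM CPM. As a percent of the library, RV MCT replicate 5 at 2.40% and LV MCT replicate 2 at 2.03% were the highest instead. Leaving out RV MCT replicate 4 and LV MCT replicate 3 favours calls, because they were picked for their high values. Without them 1 member was called in the RV, Nd1 (edgeR adjusted p = 0.038), and 6 in the LV. The share of all genes called without these libraries is not given here. In the RV the signs of the 6 genes other than Nd6 were kept within May and June, with log2 fold changes from -0.72 to -0.20, and within November, with -0.64 to -0.14. No member was called in either set.

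**Figure D2:**
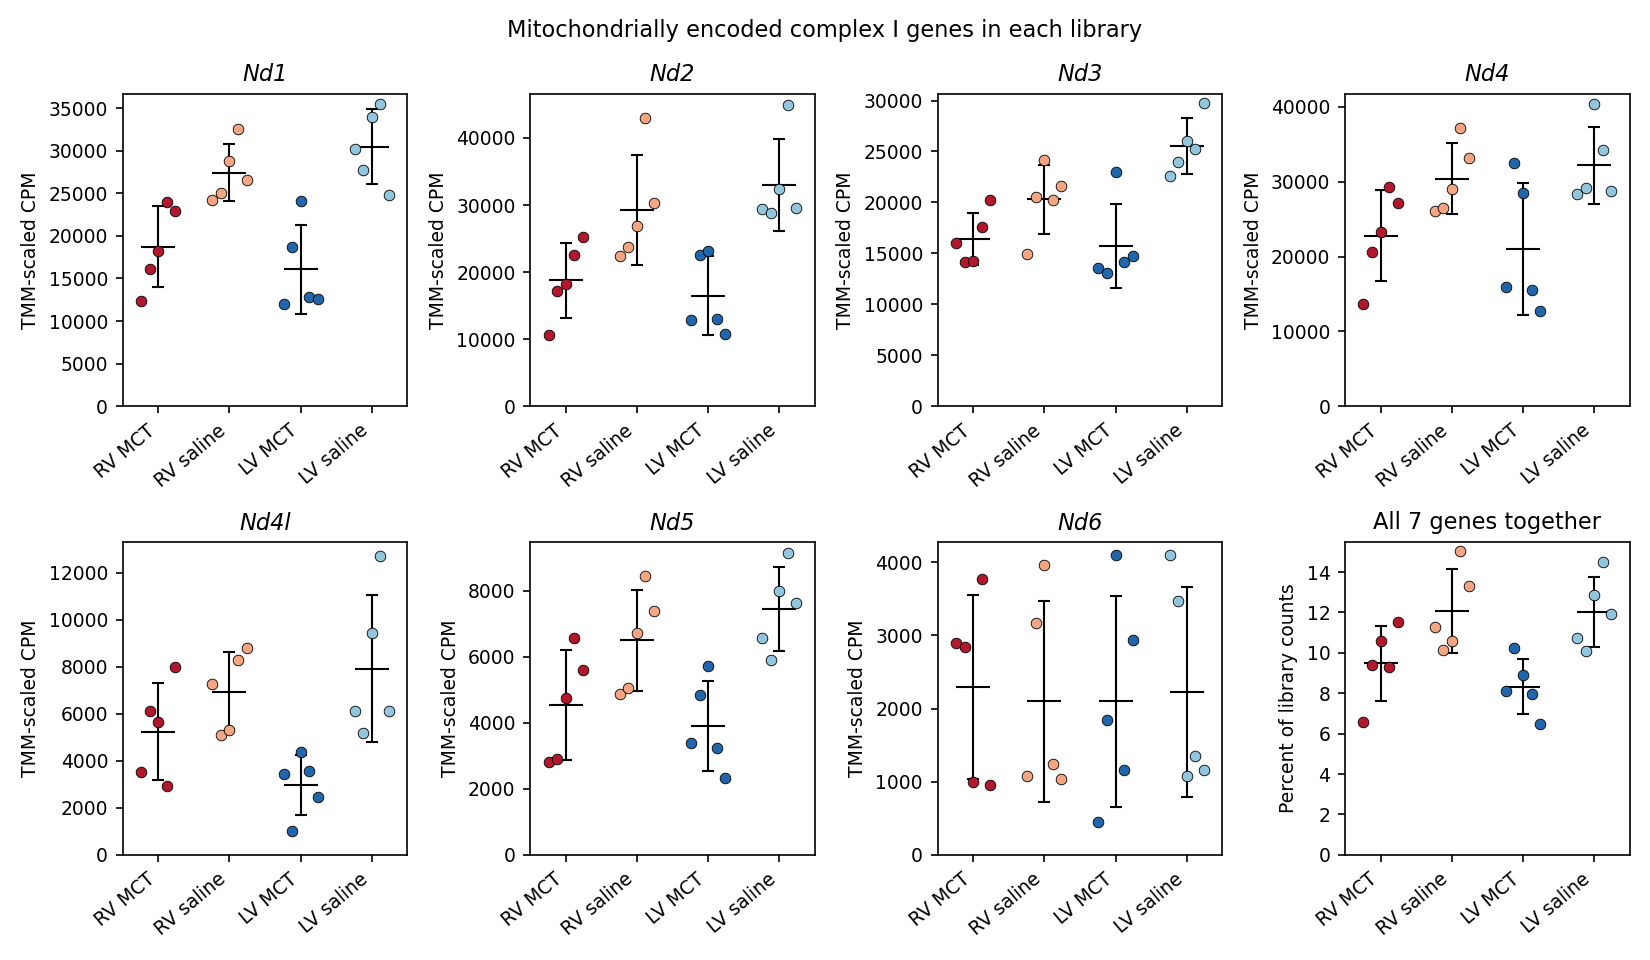
Level of each gene in CPM after TMM scaling in each library (points, y axes linear from 0), with the mean and SD of each group of 5 (bars), and the percent of library counts of all 7 genes in the last panel. On the TMM scale Nd1, Nd2, Nd4l and Nd5 separate LV MCT from LV saline, while Nd6 spreads over the same range in all 4 groups.

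The response of the LV was not shown to differ from that of the RV. For the 6 genes other than Nd6 the RV minus LV difference in log2 fold change ran from 0.20 to 1.01, and no gene was called (edgeR, adjusted p of 0.9999 for each of the 7). Of all 10929 genes 0 were called and 2.79% had an unadjusted p under 0.05. Nd4l had the largest difference of the members, 1.01 with a 95% interval from 0.02 to 1.997 and an unadjusted p of 0.046. For Nd1 the interval ran from -0.25 to 0.99. Only the interval of Nd4l lies wholly above 0. DESeq2 and limma voom also called 0 of the 7.

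**Figure D3:**
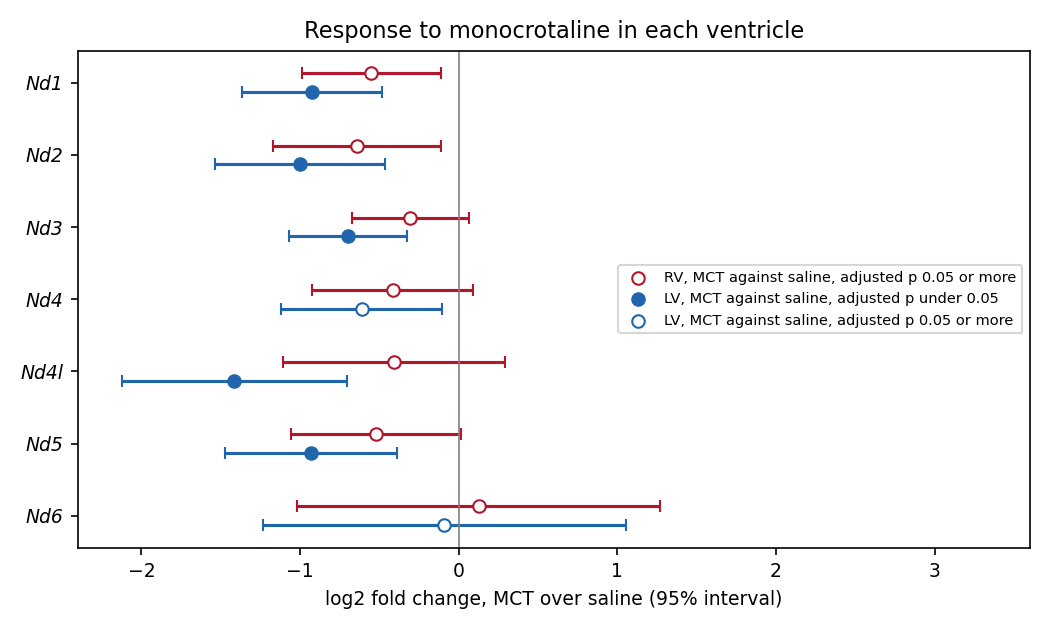
Log2 fold change of MCT over saline (x axis) with its 95% interval for each gene in the RV and the LV, from the edgeR fit over all 20 libraries. Filled points passed an adjusted p of 0.05, which holds for 5 genes in the LV and for none in the RV, and the intervals of Nd6 are the widest.

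On TMM CPM, the 6 genes other than Nd6 kept the same order of group means. As a percent of the library, the RV and LV saline means changed places for Nd1, Nd2, Nd4 and Nd4l. For Nd1 they were then 2.69% in the RV and 2.63% in the LV. Nd1 averaged 16063 ± 5237 CPM in LV MCT, 18731 ± 4780 in RV MCT, 27425 ± 3349 in RV saline and 30445 ± 4409 in LV saline (SD, n = 5 each). Nd4l averaged 2972 ± 1290, 5243 ± 2064, 6947 ± 1691 and 7917 ± 3135 CPM in the same groups. Neighbours in this order were not separated: no member was called between RV MCT and RV saline, between RV MCT and LV MCT, or between RV saline and LV saline.

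After MCT the RV stood above the LV by log2 differences from 0.07 to 0.82 for these 6 genes (edgeR, adjusted p of 0.99996 for each of the 7). Of all genes 0 were called in this comparison and 1.86% had an unadjusted p under 0.05. The member with the largest value was Nd4l, whose values in both groups are given above. Its groups overlapped, and the log2 difference of 0.82 (SE 0.34) had an unadjusted p of 0.024 in edgeR. After saline the RV stood below the LV by log2 differences from -0.33 to -0.08, with 0 members called (edgeR, smallest adjusted p = 0.67) and an unadjusted p of 0.079 or more. Between saline libraries of the same code, Nd3 was lower in the RV in 5 of 5 pairs, on TMM CPM and as a percent of the library. Nd5 was lower in 5 of 5 pairs on TMM CPM and in 3 of 5 as a percent. Nd1, Nd2, Nd4, Nd4l and Nd6 were lower in 3 or 4 of 5 on TMM CPM and in 1 or 2 as a percent. Between MCT libraries, the RV was lower on TMM CPM in 3 of 5 pairs for Nd2, Nd4 and Nd5. For Nd1, Nd3, Nd4l and Nd6 it was lower in 1 or 2. How many of all genes were lower in 5 of 5 pairs was not counted. With the pairs of the same code as a block, the log2 difference of Nd3 was -0.34 (SE 0.19, unadjusted p = 0.091, edgeR adjusted p = 0.67) and that of Nd5 was -0.21 (SE 0.26, edgeR adjusted p = 0.90). Without the block, 0.0732% of all genes were called between RV saline and LV saline and 8.32% had an unadjusted p under 0.05. DESeq2 and limma voom called 0 of the 7 in either comparison. Within May and June the RV MCT against LV MCT values of Nd1, Nd2, Nd3, Nd4 and Nd5 were negative, from -0.40 to -0.13, so no direction is given for these genes after MCT. With library totals alone as the scale, the saline differences of Nd1, Nd2, Nd4 and Nd4l turned to between 0.01 and 0.11, so no direction is given for them.

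Nd6, the subunit copied from the opposite strand, did not follow the other genes. It was at 451, 1840, 4093, 1161 and 2936 CPM in LV MCT libraries, against 4095, 3468, 1073, 1352 and 1164 CPM in LV saline libraries. In the RV it was at 2898, 2839, 998, 3767 and 961 CPM in MCT libraries, against 1083, 3171, 3959, 1239 and 1039 CPM in saline libraries. High and low libraries stood side by side in every group, and the range of each group covered most of the range of the others. The log2 fold change was -0.09 (SE 0.55, edgeR adjusted p = 0.94) in the LV and 0.13 (SE 0.55, edgeR adjusted p = 0.95) in the RV. The 95% interval in the LV, from -1.23 to 1.05, holds the fitted values of Nd1, Nd2, Nd3, Nd4 and Nd5.

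The Nd6 share of a library lay between 0.282% and 0.345% in 9 libraries, between 0.0593% and 0.145% in 10, and at 0.199% in LV MCT replicate 2. The 9 high libraries were 3 of RV MCT, 2 of RV saline, 2 of LV MCT and 2 of LV saline, and 7 of them carried codes of May or June. They had total counts from 3272420 to 6414662, and the 10 low libraries had 4439487 to 9227104. Across all libraries, the log2 CPM of Nd6 had a Pearson correlation of -0.69 with the log2 library total, and of -0.69 with the group means removed. The part of depth and of the codes in this pattern was not tested. Among saline libraries the other 6 genes together held 9.82% to 10.4% of counts in the 4 libraries with high Nd6 and 11.1% to 14.9% in the 6 with low Nd6. Among MCT libraries they held 6.16% to 9.06% in the 5 with high Nd6 and 7.80% to 11.4% in the 4 with low Nd6, so there the ranges overlapped. With the Nd6 level as a covariate, 5 of the other 6 genes were called in the LV and 0 in the RV, as many as without it. The share of all genes called with the covariate is not given here.

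**Figure D4:**
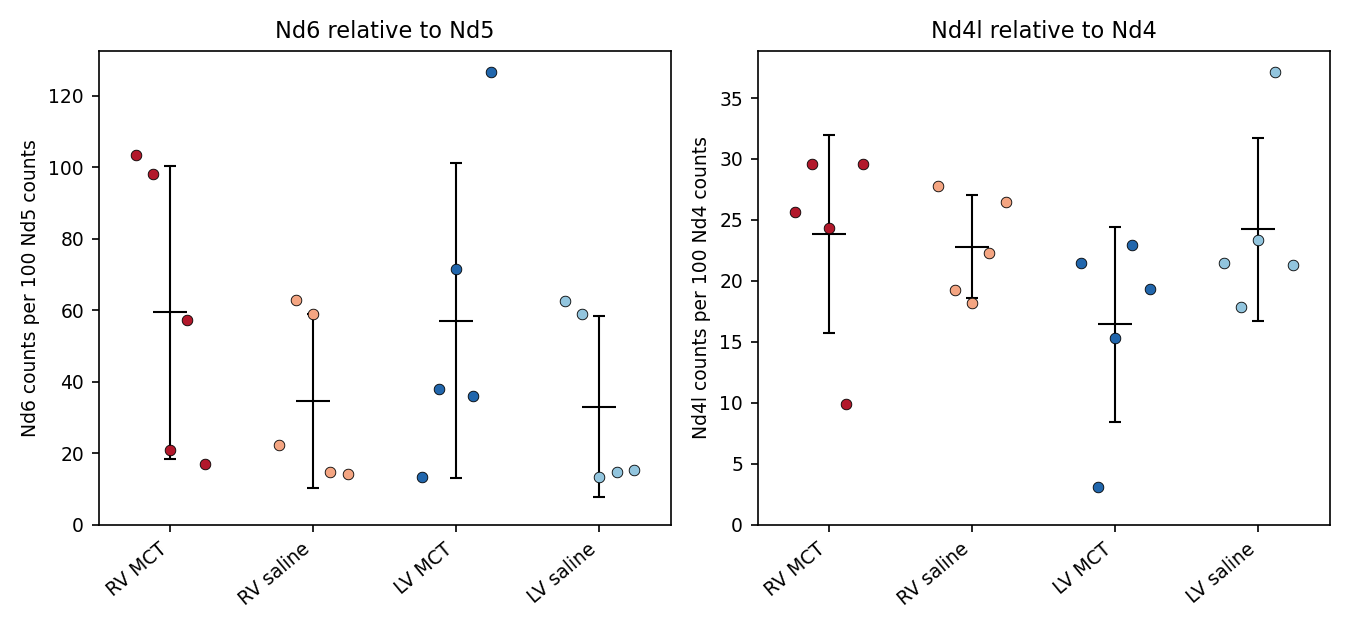
Counts of Nd6 per 100 counts of Nd5 (left) and of Nd4l per 100 counts of Nd4 (right) in each library (points, y axes linear from 0), with the mean and SD of each group of 5 (bars). Nd6 runs from 13.3 to 127 per 100 Nd5 counts with the 4 highest libraries in the MCT groups, and Nd4l is lowest at 3.10 per 100 Nd4 counts in LV MCT replicate 2.

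Ratios within a library do not depend on how libraries are scaled. Nd6 and Nd5 are neighbours on opposite strands. Nd6 had 13.3 to 127 counts per 100 Nd5 counts in LV MCT libraries, against 13.4 to 62.5 in LV saline libraries. It had 17.1 to 103 in RV MCT libraries, against 14.1 to 62.9 in RV saline libraries. The mean ratio was 57.0 ± 44.1 in LV MCT and 33.0 ± 25.3 in LV saline (SD, n = 5 each), and 59.4 ± 40.9 in RV MCT and 34.5 ± 24.3 in RV saline. The means were higher after MCT in both ventricles, by less than the SD within the MCT groups, and the ratio was not tested. The strand setting of the counting is not given in the sources used here, so reads of one of these genes could in part be counted for the other.

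Nd4l and Nd4 share a messenger, yet their counts did not keep a fixed ratio. Nd4l had 21.5, 3.10, 15.4, 22.9 and 19.4 counts per 100 Nd4 counts in LV MCT libraries, against 21.5, 17.8, 23.3, 37.2 and 21.3 in LV saline libraries. Nearly all libraries lay in a common band, with LV MCT replicate 2 below it and LV saline replicate 4 above. In the RV the ratio was 25.7, 29.6, 24.4, 9.92 and 29.6 in MCT libraries, against 27.8, 19.3, 18.2, 22.3 and 26.4 in saline libraries. RV MCT replicate 4 stood apart at the low end. The genes overlap, so reads from the overlap could be counted for either or for neither.

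As a share of the counts of all 7 genes, Nd1 held 20.5% ± 0.87 (SD, n = 5) in LV MCT and 21.9% ± 1.59 in LV saline, and 21.0% ± 0.97 in RV MCT and 22.4% ± 1.35 in RV saline. Nd5 held 4.95% ± 0.58 in LV MCT and 5.35% ± 0.47 in LV saline, and 4.99% ± 0.98 in RV MCT and 5.23% ± 0.49 in RV saline. For Nd4l the share was 4.07% ± 1.85 in LV MCT and 5.56% ± 1.46 in LV saline, and 5.99% ± 1.97 in RV MCT and 5.68% ± 1.30 in RV saline. For Nd3 it was 20.7% ± 4.23 in LV MCT and 18.6% ± 2.96 in LV saline, and 19.0% ± 3.88 in RV MCT and 16.6% ± 2.56 in RV saline. Nd6 held 2.63% ± 1.68 in LV MCT and 1.69% ± 1.21 in LV saline, and 2.76% ± 1.66 in RV MCT and 1.76% ± 1.18 in RV saline. Nd2 held 20.8% ± 1.95 in LV MCT and 23.7% ± 2.29 in LV saline, and 20.8% ± 2.16 in RV MCT and 23.5% ± 2.90 in RV saline. Nd4 held 26.3% ± 4.73 in LV MCT and 23.2% ± 2.15 in LV saline, and 25.5% ± 2.20 in RV MCT and 24.8% ± 1.10 in RV saline. No test was made on these shares, which come from reads of 3' ends and do not rank the genes by messenger abundance.

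Across the 20 libraries, Nd1, Nd2, Nd4 and Nd5 had like profiles in log2 CPM, with Pearson correlations from 0.92 to 0.96 over their 6 pairs and Spearman values from 0.81 to 0.94. With the group means removed they still ran from 0.86 to 0.91. Nd3 was less alike, with 0.34 to 0.53 against these 4 after the group means were removed, and Nd4l still less, with -0.01 to 0.25 against the other 5. Nd6 ran from -0.45 to 0.25 against the other 6, with the lowest value for Nd4l. These values describe libraries that share scaling factors and possibly animals, and carry no test. Of 6883 other genes with a mean log2 CPM of at least 3, the 2 most like the mean of the 7 were ENSRNOG00000030700 and ENSRNOG00000031979, each with a Pearson correlation of 0.96, and 0.92 and 0.91 with the group means removed.

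**Figure D5:**
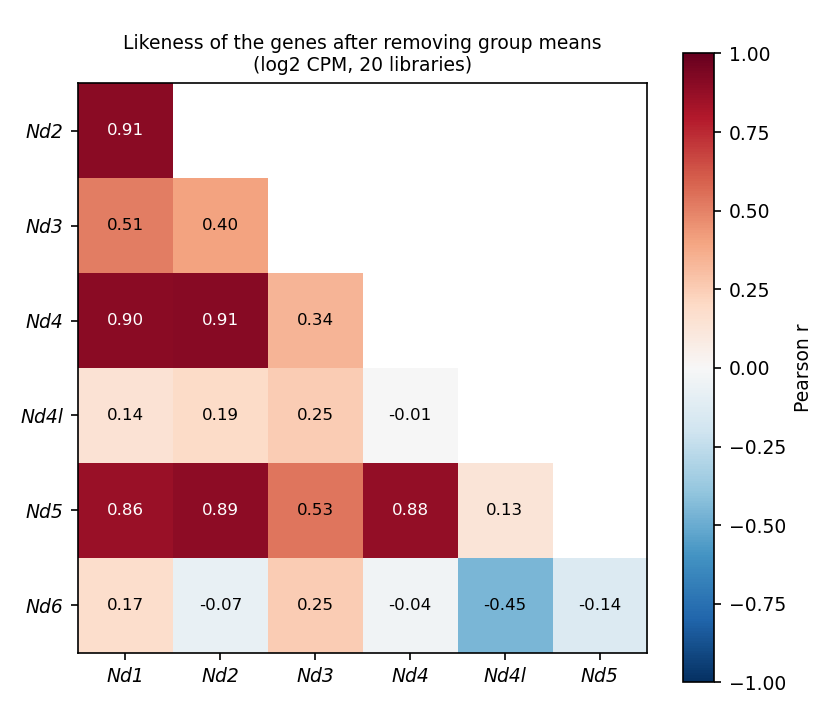
Pearson correlation of log2 CPM between each pair of the 7 genes over 20 libraries after the mean of each group was removed (colour from blue at -1 to red at 1, value printed in each cell). Nd1, Nd2, Nd4 and Nd5 form a block of 0.86 to 0.91, and the row of Nd6 lies between -0.45 and 0.25.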

How the data were processed

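The authors deposited raw read counts per Ensembl gene, 1 column per library, and all 20 columns were matched to samples by their description codes. The submitters' processing notes list HTSeq 0.11.3 and STAR 2.7.10a as tools and name rn6 and mRatBN7.2 without roles. Per the labels' protocols, QuantSeq 3' FWD libraries were read as 150 bp pairs in 2 runs. The annotation release, the strand setting and the treatment of reads with several matches were not given in the sources used here. Nuclear copies of mitochondrial DNA and overlapping genes could therefore move counts.

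The main test of the deposited counts used edgeR 4.0.16 under R 4.3.3 (TMM, filterByExpr, robust quasi-likelihood fit of 4 group means over all 20 libraries, Benjamini-Hochberg over 10929 genes). Each standard error is the log2 fold change over the root of its F value. Log2 CPM used a prior count of 2. The procedure was also run on simulated data, drawn as independent counts. Its outcome is not given here, and it could not show an effect of shared animals or codes. The members, gene names, lists and tests were chosen with earlier results of these data known. All 7 members are named, with the 2 most alike genes. Lists of nuclear complex I, mitochondrial RNA and cell type genes were set by symbol and could not be applied to the IDs. Alternatives included DESeq2 1.42.0 and limma 3.58.1 voom. Within groups no pair of libraries held the same counts, and the chi-square per degree of freedom was at least 4.87 over 40 pairs.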

Additional observations from a re-analysis of the deposited data

Results flagged for a closer look

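Of 68 sets of 5 values examined for a library far from the rest of its group, 6 held such a library, where chance picks about 1 in 20. LV saline replicate 4 held 3.996% of its counts in Nd2, against 2.34% to 2.75% in the other LV saline libraries. RV saline replicate 4 had 28.5% of the counts of the 7 genes in Nd2, and its 4 companions had 21.5% to 23.5%. RV MCT replicate 1 had 25.8% of them in Nd3, against 16.5% to 18.4% in the other RV MCT libraries. LV MCT replicate 5 had 3.95% of them in Nd5, against 5.07% to 5.495% in the other LV MCT libraries. Nd4l stood at 37.2 counts per 100 Nd4 counts in LV saline replicate 4, against 17.8 to 23.3 in the other LV saline libraries. It stood at 9.92 in RV MCT replicate 4, against 24.4 to 29.6 in the other RV MCT libraries.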

How the results depend on the processing

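Over 34 alternatives, 4 of them chosen after seeing the data, the 7 genes gave 1178 values, of which 1107 kept their sign and side of the threshold. In 24 a call was lost, in 4 a call was gained and in 43 the sign turned, never in a value called before or after. All 24 lost calls were of the 5 genes called in the LV, since no other comparison had calls to lose. Of 34 alternatives, the LV call was kept in 33 for Nd1, 29 for Nd2, 27 for Nd3, 31 for Nd4l and 26 for Nd5. The LV count of 5 was 3 with library totals alone, 0 within May and June, 3 within November and 6 with limma voom, and ran from 2 to 6 without 1 library. Over all genes, edgeR called 30 in the RV and 1040 in the LV, DESeq2 402 and 1421, and limma voom 275 and 2911. Library totals moved the median of all genes to 0.39 in the LV, so Nd1 at -0.63 lay 1.02 below it. The RV count of 0 was 1 with RV MCT replicate 4 and LV MCT replicate 3 left out, both high on TMM CPM. With the replicate block (the number for MCT against saline, the pair of the same code for RV against LV and the difference) the counts were 5 in the LV and 0 in the others. Deviations of same-numbered libraries between MCT and saline correlated from -0.23 to 0.21 for RV libraries (0 of 5 best with their own number) and from -0.32 to 0.22 for LV libraries (1 of 5). Between RV and LV of the same code they ran from -0.35 to 0.24 after MCT (1 of 5) and from -0.18 to 0.59 after saline (3 of 5). For each of these the cause was not tested.

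Signs turned as follows. For Nd6 the RV value was -0.0068 with limma voom, -0.13 with both high MCT libraries left out and -0.26 within May and June, and the LV value was 0.15 with library totals, 0.013 with the month term and 0.70 within November. Within May and June the difference of responses was -5.6e-05 for Nd2, -0.12 for Nd4 and -0.078 for Nd5, and RV MCT against LV MCT was -0.20 for Nd1, -0.33 for Nd2, -0.13 for Nd3, -0.40 for Nd4 and -0.39 for Nd5. For RV saline against LV saline, library totals gave 0.032 for Nd1, 0.0077 for Nd2, 0.11 for Nd4, 0.011 for Nd4l and 0.051 for Nd6, and November gave 0.16 for Nd4. Without 1 library, Nd6 ran from -0.48 to 0.25 in the LV, from -0.13 to 0.49 in the RV, from -0.12 to 0.61 in the difference, from -0.12 to 0.52 for RV MCT against LV MCT and from -0.45 to 0.25 for RV saline against LV saline. RV MCT against LV MCT ran from -0.0066 to 0.24 for Nd3 and from -0.013 to 0.33 for Nd4, and RV saline against LV saline from -0.16 to 0.012 for Nd4 and from -0.31 to 0.049 for Nd4l.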

Other observations

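Some other genes had profiles like that of Nd6 over these libraries. How many such genes a typical gene has was not counted. Of 6889 genes with a mean log2 CPM of at least 3, 100 had a Pearson correlation over 0.8 with Nd6 across the 20 libraries, and 17 had a correlation under -0.8. The gene most like Nd6, singled out after the values were seen, was ENSRNOG00000055281, at 0.92, and at 0.94 with the group means removed. None of the 6 other mitochondrially encoded complex I genes was among these 100 or 17, since their correlations with Nd6 ran from -0.26 to 0.19. Nuclear complex I genes could not be looked up. The values are descriptions over libraries that share scaling and depth.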
